A study of Mus musculus with 12 samples.

Results

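The genes described here are the 37 genes of the mouse mitochondrial genome, which are all genes whose symbol starts with mt-, among 38293 genes in each of 2 tables of read counts from mouse heart. They comprise 13 mRNA genes, 2 rRNA genes and 22 tRNA genes, and all 37 were found by their Ensembl identifiers in both tables. The first table held 3 WT sham and 3 WT IR libraries from C57Bl/6J wild-type mice after sham surgery or 14 days after ischaemia-reperfusion (IR), in which the left anterior descending artery was tied for 1 h and released. The second table held 3 Zeb2 WT IR libraries from wild-type littermates and 3 libraries labelled Zeb2 cTg IR, all 14 days after the same injury. Mice of the last group, labelled Zeb2 Tg and called Zeb2 cTg in the study, carry the αMHC-Cre transgene, driven by the cardiomyocyte Myh6 promoter, which opens a Rosa26 lox-stop-lox Zeb2 allele, so that overexpression is aimed at cardiomyocytes of a tissue that also holds other cells. The labels give the strain C57Bl/6J for these groups too. The methods give an age of 8 to 9 weeks, with mice of both sexes named in one place and males in another, so the sex of these animals is not settled, and the labels give no day for the sham hearts.

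The mitochondrial genome is a small circle, present in many copies per cell, that is read on both strands into long precursor RNAs. The tRNAs lie between most of the other genes, and their excision frees the mRNAs and the rRNAs. The mRNAs encode core subunits of complex I, complex III, complex IV and the ATP synthase, the rRNAs build the mitochondrial ribosome, and all other proteins of mitochondria come from nuclear genes. Cardiomyocytes are rich in mitochondria, and heart RNA therefore holds much mitochondrial RNA.

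The libraries held between 20215781 and 36816818 counts on genes. The mean number of reads per heart library in the study's methods lies below all of these totals, and why was not tested. Markers of cardiomyocytes were abundant in all libraries, with summed levels between 55438 and 83423 CPM (counts per 1000000 counts, scaled by TMM), and no cardiomyocyte marker was at 0. Zeb2, the transgene of the second comparison, was at 54.7, 57.8 and 67.0 CPM in Zeb2 WT IR and at 55.5, 56.9 and 58.7 CPM in those labelled Zeb2 cTg IR, with a log2 fold change of -0.07 (SE 0.12, edgeR quasi-likelihood test, adjusted p = 0.75). The counts of Zeb2 thus did not separate these libraries by their labels. The study itself reported more Zeb2 RNA by qPCR and more ZEB2 protein by immunofluorescence in Zeb2 cTg hearts. Why the counts here do not show this was not tested. Sources differ on the tissue and the kit: left ventricle and a stranded mRNA kit in the sample labels, remote zone and a stranded total RNA kit in the methods, and infarct with border zone in the series' design text. How much rRNA a library keeps depends on the kit, its part in the values was not tested, and a share of rRNA given here is a share of the library and not of the RNA in the tissue.

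Many of the genes with few counts lie in 1 stretch of the mitochondrial genome. A stretch of 4649 bases of the mitochondrial genome, chrM:6394-11042 in GRCm38 (GENCODE M21), runs from the last 479 bases of mt-Co1 to base 876 of mt-Nd4. The annotation places 7 unprocessed pseudogenes on chromosome 1 (chr1:24611535-24616197, minus strand) that match its protein-coding genes. The copies of mt-Co2, mt-Atp6, mt-Co3, mt-Nd3, mt-Nd4l and the start of mt-Nd4 showed 0 mismatches over their aligned length. The copy of the end of mt-Co1 showed 1 mismatch (99.8% identity) and was identical from base 1067 of mt-Co1 on. The sequences between the pseudogenes were not compared. The bases at both ends of the stretch, and the start of a gene inside it beside its copy, are shown to let the identity be seen. Capitals mark bases of the unbroken identity with the chromosome 1 copy. Lower-case bases lie outside it and need not differ, and those of mt-Nd4 lie past the annotated end of its copy and were not compared.
mt-Co1: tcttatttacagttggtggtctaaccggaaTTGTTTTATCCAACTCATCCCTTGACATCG
mt-Co2: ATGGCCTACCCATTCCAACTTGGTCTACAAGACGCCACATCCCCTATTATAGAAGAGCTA
Gm28661: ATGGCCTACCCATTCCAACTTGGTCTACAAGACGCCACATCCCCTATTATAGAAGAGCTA
mt-Nd4: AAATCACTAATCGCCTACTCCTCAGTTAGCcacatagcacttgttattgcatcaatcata
The stretch of mt-Co1 is chrM:6364-6423, that of mt-Co2 is chrM:7013-7072, that of its copy Gm28661 is chr1:24615506-24615565 on the minus strand, and that of mt-Nd4 is chrM:11013-11072.

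The 11 genes that lie wholly inside this stretch received 36 counts in all 12 libraries together. Among them were 6 of the 13 mRNAs. mt-Co2 (subunit 2 of complex IV) had 5 counts, mt-Co3 (subunit 3 of complex IV) 5, mt-Atp6 and mt-Atp8 (subunits of the ATP synthase) 5 and 3, mt-Nd3 13 and mt-Nd4l 3 (subunits of complex I). No library held more than 3 counts of any of them. A read of 75 bases from the middle of mt-Co2 matches 2 places equally well, since 99.5% of the 75-base windows inside mt-Co2 occur in another annotated transcript, as do 99.5% of those of mt-Atp6, 99.9% of mt-Co3, 97.8% of mt-Nd3 and 98.7% of mt-Nd4l. How the authors treated reads that match several places is not given in the sources used here, and the counts of these 6 mRNAs cannot be read as levels. Of the 7 copies on chromosome 1 only Gm10222 had a row in the tables, with 0 to 3 counts per library.

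**Figure D1:**
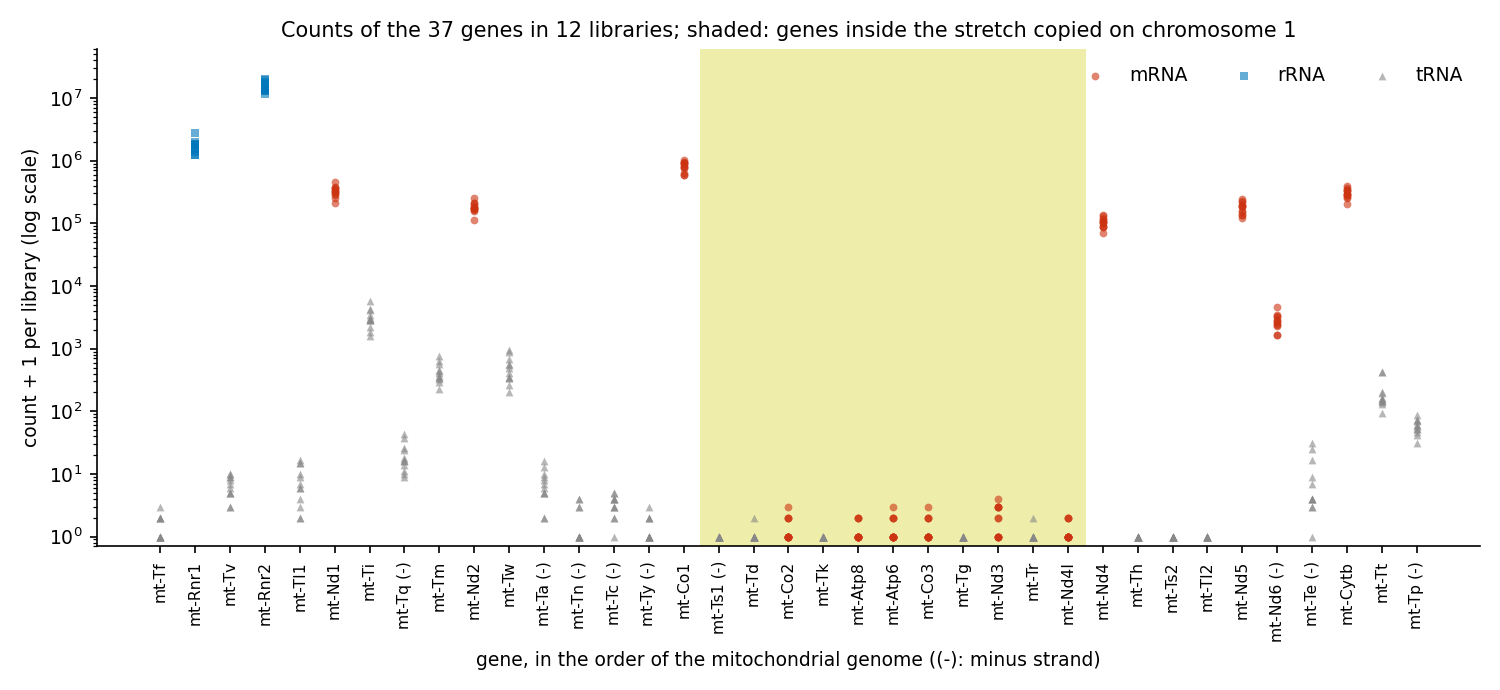
Counts of each of the 37 genes in each of the 12 libraries (count + 1, log scale), with genes in the order of the mitochondrial genome and genes inside the copied stretch shaded. The 11 shaded genes sit at 0 to 3 counts, whereas mt-Co1 and mt-Nd4, which lie partly inside the stretch at its ends, hold at least 69544 counts in every library.

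mt-Atp8 was at 0 or 1 count in every library although none of its 75-base windows occurs in another annotated transcript. mt-Atp8 and mt-Atp6 share 43 bases in different reading frames, so that a read in that part touches both genes. These bases fall inside the copy Gm10925. The rest of mt-Atp8 would lie between the annotated copies Gm10925 and Gm28661, where no sequence was compared. The overlap is printed in capitals with 20 bases on either side (chrM:7907-7989), because it is where counts of the 2 subunits cannot be told apart.
mt-Atp8/mt-Atp6: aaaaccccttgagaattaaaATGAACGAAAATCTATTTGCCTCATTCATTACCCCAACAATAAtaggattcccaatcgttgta

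The tRNA genes were set against their position too. All are shorter than a 75-base read or just as long, so a read that reaches a tRNA usually also touches its neighbour. For each gene the same-strand read positions that touch it and no other gene were counted. Of the 14 tRNA genes on the plus strand, 8 had no such position, and these 8 held 75 counts in all libraries together, of which 68 fell on mt-Tv. The 4 plus-strand tRNA genes with 63 to 67 such positions that lie outside the copied stretch had the most counts. mt-Ti (isoleucine) had 38109 counts over the 12 libraries, mt-Tw (tryptophan) 6032, mt-Tm (methionine) 5131 and mt-Tt (threonine) 2385, together 97.5% of all tRNA counts. mt-Td (aspartate), with 66 positions but inside the stretch, had 1 count. The 8 tRNA genes on the minus strand held 1140 counts, of which mt-Tp (proline) had 692, whereas mt-Ty (tyrosine), outside the stretch and with 69 positions, had 5. The 2 kinds of tRNA gene are shown side by side: mt-Ti (chrM:3706-3774) and mt-Tm (chrM:3845-3913) with many counts, and mt-Tg (glycine, chrM:9391-9458), which had 0 counts in every library, has no position of its own and lies inside the copied stretch. Capitals mark the 2 bases that mt-Ti shares with the end of mt-Nd1.
mt-Ti: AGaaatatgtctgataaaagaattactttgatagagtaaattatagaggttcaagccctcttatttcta
mt-Tm: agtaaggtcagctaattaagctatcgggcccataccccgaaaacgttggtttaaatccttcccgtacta
mt-Tg: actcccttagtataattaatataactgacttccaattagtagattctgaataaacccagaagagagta

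**Figure D2:**
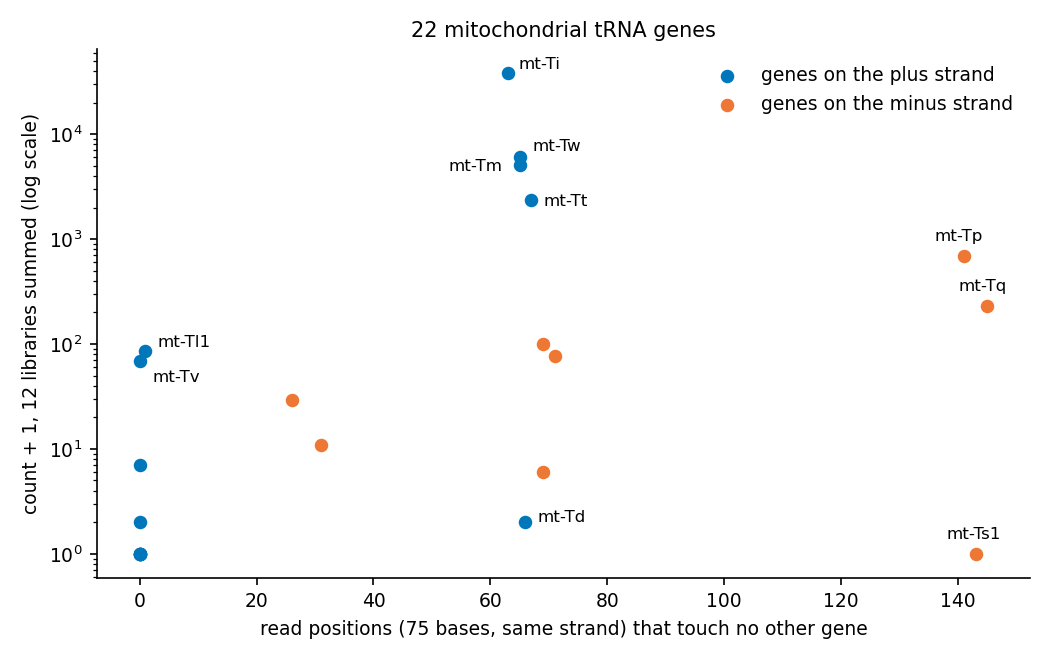
Counts of the 22 tRNA genes summed over 12 libraries (count + 1, log scale) against the number of 75-base read positions that touch no other gene on the same strand. mt-Ti, mt-Tw, mt-Tm and mt-Tt stand above all others at 63 to 67 positions, whereas the 8 plus-strand genes at 0 positions hold 75 counts in all.

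A full 75-base read cannot lie inside a gene shorter than itself, so the values of mt-Ti, mt-Tw, mt-Tm, mt-Tt and mt-Tp are counts on the gene rather than levels of mature tRNA. Whether shorter, trimmed reads were counted is not given in the sources used here. A gene at 0 counts in the shallowest library could still have held up to 3 counts, which is a share of 1.48e-05% of that library, counting error only.

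Among the 7 mRNAs with counts, the order of levels depended on how the copied bases were treated. Per kb of gene and set against mt-Co1 (subunit 1 of complex IV) at 100, the median over the 12 libraries was 63.1 for mt-Nd1 (range 57.4 to 78.3) and 50.6 for mt-Cytb, the complex III subunit (43.6 to 56.9). mt-Nd2 had a median of 33.1 (28.9 to 40.4), mt-Nd5 of 19.6 (12.5 to 22.8) and mt-Nd4 of 14.8 (11.0 to 17.0). mt-Nd6, the only mRNA on the minus strand, was at 0.98 (0.798 to 1.505), far under the complex I subunits of the plus strand among these 7. When counts were instead divided by the number of 75-base windows that occur in no other transcript, a choice made after seeing the data, mt-Nd4 moved above mt-Nd5. mt-Nd4 then had a median of 23.2 (17.2 to 26.7), mt-Nd2 of 21.7 (18.9 to 26.4) and mt-Nd5 of 11.9 (7.61 to 13.9), so that mt-Nd4 and mt-Nd2 were neighbours whose ranges overlapped. The ratio of mt-Nd4 to mt-Nd5 was 0.723 to 1.00 per kb and 1.87 to 2.59 per window. The 2 rRNAs stood above all mRNAs, at a median of 331 for mt-Rnr1 (12S) and 1913 for mt-Rnr2 (16S) per kb on the same scale.

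mt-Nd6 runs against mt-Nd5 and shares its last 14 bases with the end of mt-Nd5 on the other strand. Its end is printed (chrM:13552-13611, minus strand) because mt-Nd6 is the member that comes up in both comparisons, with the shared bases in capitals. The setting for strand in the counting is not given in the sources used here, so reads of the plus-strand precursor across mt-Nd6 cannot be told apart from its mRNA.
mt-Nd6: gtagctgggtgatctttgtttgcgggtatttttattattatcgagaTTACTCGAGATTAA

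The first comparison asked how the wild-type heart differed 14 days post-IR from the sham heart. The mitochondrial mRNAs took a smaller part of the counts after IR, whereas the rRNAs did not. mt-Nd2 and mt-Nd6, 2 subunits of complex I, and the tRNA genes mt-Tw and mt-Tp passed as lower. They were 4 of 15 genes tested (26.7%), where 20.8% of all genes tested passed in either direction and 9.74% as lower. None of the 15 passed as higher, and the calls depended on single libraries and on the scaling.

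All 37 genes together took 65.0, 66.3 and 71.8% of all counts in the WT sham libraries and 68.8, 68.5 and 65.0% in the WT IR libraries. The groups overlapped, with means of 67.7 ± 3.60% and 67.4 ± 2.10% (SD, n = 3, two-sided exact permutation p = 1). The rRNAs behaved alike, with 57.9, 58.5 and 64.3% in WT sham and 62.5, 62.4 and 59.5% in WT IR. A permutation test of 3 against 3 cannot give a p under 0.1.

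The 13 mRNAs together took 7.12, 7.76 and 7.46% of all counts in WT sham and 6.29, 6.06 and 5.51% in WT IR. All 3 WT IR libraries lay below all 3 WT sham libraries, and the mean was 7.44 ± 0.32% against 5.95 ± 0.40% (SD, n = 3, two-sided exact permutation p = 0.1, the lowest possible). The groups stayed apart when rRNA and tRNA counts were left out of the total, at 16.9, 18.7 and 20.9% in WT sham and 16.8, 16.1 and 13.6% in WT IR, the closest pair then being WT sham replicate 1 and WT IR replicate 1. The counts of rRNA per count of mRNA were 8.13, 7.54 and 8.62 in WT sham and 9.95, 10.3 and 10.8 in WT IR. This ratio was higher in each WT IR library than in each WT sham library, by 1.28-fold in the mean (8.10 ± 0.54 against 10.4 ± 0.43, SD, n = 3, two-sided exact permutation p = 0.1). It was 1.24-fold to 1.32-fold when any single library was left out. Most of the rRNA counts were mt-Rnr2. For mt-Rnr1 alone the counts per count of mRNA overlapped between the groups (two-sided exact permutation p = 0.2). They were 0.861, 0.695 and 0.898 in WT sham and 0.874, 1.26 and 0.935 in WT IR.

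**Figure D3:**
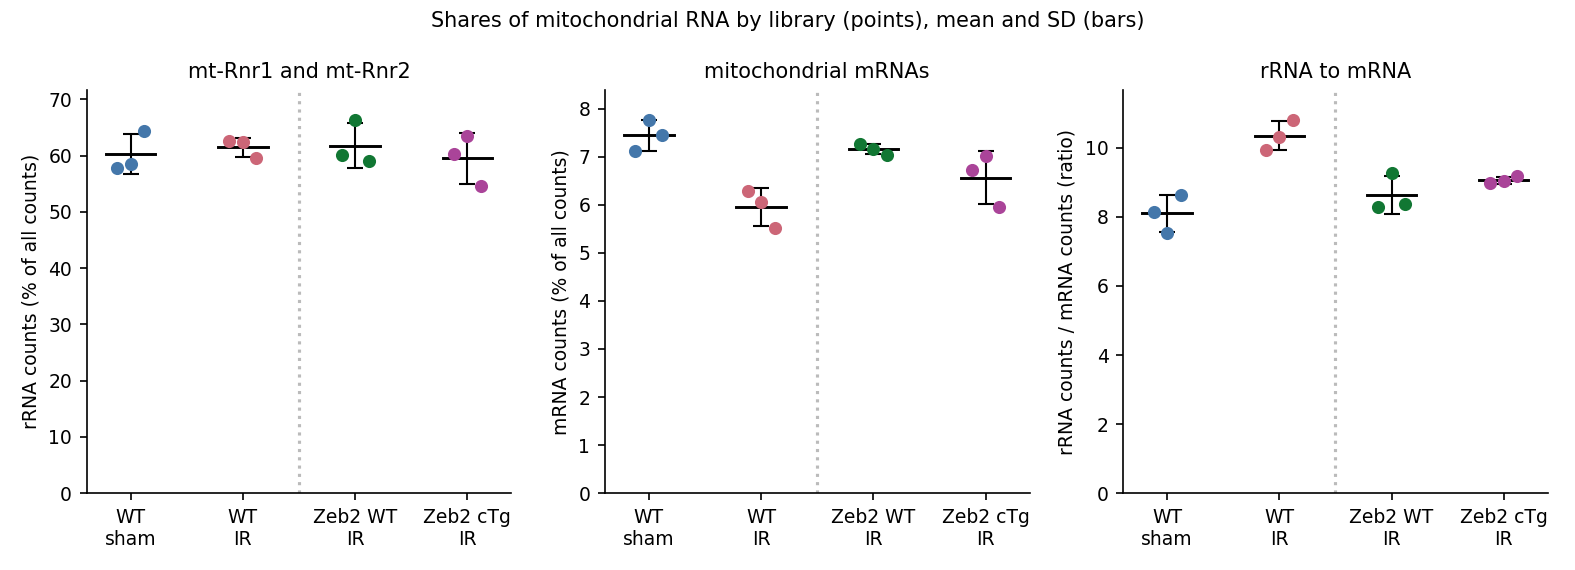
Counts of the 2 rRNAs and of the 13 mRNAs as percent of all counts, and the ratio of rRNA to mRNA counts, for each library (points) with group mean and SD (bars), and a dotted line between the 2 tables. The mRNA share of the 3 WT IR libraries lies under that of the 3 WT sham libraries and the ratio above it, whereas the rRNA shares overlap.

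Across genes, 15 of the 37 had enough counts to be tested in this comparison, namely 7 mRNAs, both rRNAs and 6 tRNA genes. Of these, 4 passed an adjusted p of 0.05 in edgeR's quasi-likelihood test, all of them lower, while 20.8% of the 13756 genes tested passed in either direction and 9.74% passed as lower. For 8 of the 15 the groups were without overlap in CPM, against 39.8% of all genes tested. The median log2 fold change of the 15 was -0.47, against 0.01 over all genes.

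mt-Nd2, a membrane subunit of complex I, was at 6319, 7828 and 9332 CPM in WT sham and at 5722, 5259 and 4263 CPM in WT IR. The groups did not overlap, and mt-Nd2 fell by 0.62 on the log2 scale (SE 0.19, edgeR, adjusted p = 0.0492). This call lay at the threshold: 9 of 18 alternative settings passed (adjusted p 0.000557 to 0.170). The call was lost with upper quartile scaling (0.0556), with the replicate block (0.0852) and with all 12 libraries in 1 fit (0.104). These 18 do not include the summed mRNA counts as library size, where mt-Nd2 did not pass (edgeR, adjusted p = 0.260). mt-Nd6, likewise a membrane subunit of complex I, was at 105, 98.2 and 95.2 CPM in WT sham and at 77.1, 76.7 and 61.8 CPM in WT IR. Its WT sham values were the tightest of all mRNAs, and it fell by 0.47 (SE 0.10, edgeR, adjusted p = 0.0135). For mt-Nd6, 14 of the same 18 settings passed (adjusted p 0.000682 to 0.182).

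Counts on mt-Tw were 12.7, 12.7 and 15.2 CPM in WT sham and 10.8, 8.94 and 7.46 CPM in WT IR, a fall by 0.56 (SE 0.14, edgeR, adjusted p = 0.0207). Those on mt-Tp, a minus-strand gene like mt-Nd6, were 2.72, 2.64 and 2.39 CPM in WT sham and 1.72, 1.38 and 1.12 CPM in WT IR. mt-Tp fell by 0.88 (SE 0.19, edgeR, adjusted p = 0.0139), on 30 to 86 counts per library. Of 18 alternative settings 12 passed for mt-Tw (adjusted p up to 0.241) and 14 for mt-Tp (up to 0.0732). The other tRNA genes tested did not pass, among them mt-Ti at 110, 94.5 and 166 CPM in WT sham and 109, 75.7 and 69.3 CPM in WT IR, where the groups overlapped. mt-Tm was at 11.1, 13.4 and 21.3 against 14.1, 10.6 and 8.39 CPM. mt-Tt was at 6.20, 4.88 and 5.41 against 4.31, 5.21 and 5.85 CPM, and both genes overlapped between the groups.

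The other mRNAs had log2 fold changes of the same sign without passing the test. mt-Nd1 (complex I) was at 10957, 14148 and 14594 CPM in WT sham and at 10215, 9595 and 7775 CPM in WT IR, with a log2 fold change of -0.53 (SE 0.20, edgeR, adjusted p = 0.0869). mt-Nd4 had 4133, 4207 and 5244 against 3690, 3415 and 2593 CPM, and mt-Nd5 had 7170, 7591 and 9312 against 6755, 5901 and 4499 CPM. Both are pump subunits of complex I, both were without overlap, and their log2 fold changes were -0.49 and -0.49.

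mt-Cytb, the complex III subunit, had 10810, 12226 and 14573 CPM in WT sham and 10536, 9518 and 7482 CPM in WT IR (log2 fold change -0.45, SE 0.20, edgeR, adjusted p = 0.141). mt-Co1, the catalytic subunit of complex IV, was the only mRNA whose groups overlapped, at 28391, 31211 and 34571 against 28755, 25208 and 21879 CPM (log2 fold change -0.31). Within WT IR, replicate 1 was the highest and replicate 3 the lowest for all 7 mRNAs.

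The rRNAs showed no such shift. mt-Rnr2 was at 493571, 529316 and 677826 CPM in WT sham and at 596774, 533599 and 478795 CPM in WT IR (log2 fold change -0.08, SE 0.44), and mt-Rnr1 at 58481, 53693 and 78736 against 57459, 74145 and 45421 CPM (-0.11, SE 0.30). To compare the rRNAs with the mRNAs directly, the fit was repeated with the summed mRNA counts as library size. On that scale mt-Rnr2 was higher after IR by 0.36 (SE 0.07, edgeR, adjusted p = 0.000144) and mt-Rnr1 by 0.32 (SE 0.11, adjusted p = 0.0213), and no mRNA or tRNA gene passed. With this scaling 31.9% of all genes passed and their median log2 fold change was 0.43, so the rRNAs lay below the median of all genes on it. mt-Rnr2 passed without any single library, and mt-Rnr1 in 4 of 6 such fits, which were chosen after seeing the data.

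**Figure D4:**
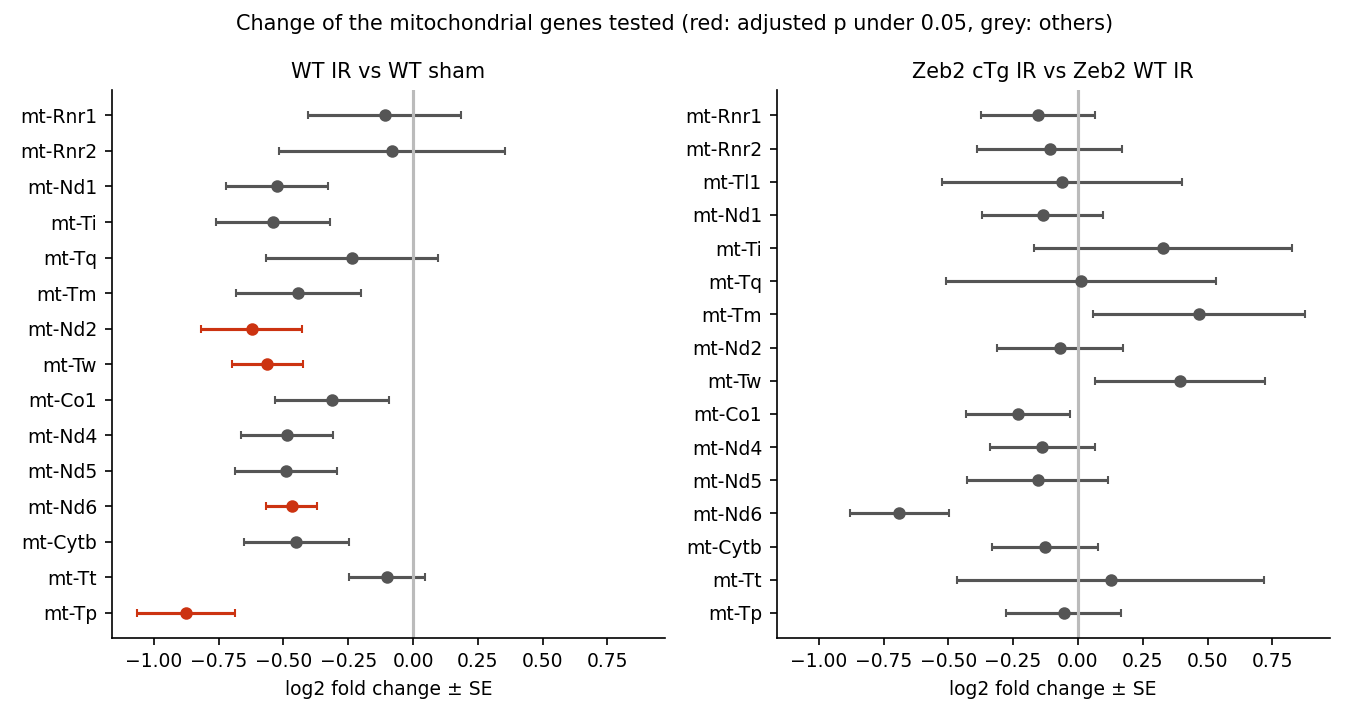
Log2 fold change with its SE (bars) for each mitochondrial gene tested, for WT IR against WT sham (left) and Zeb2 cTg IR against Zeb2 WT IR (right), with genes at an adjusted p under 0.05 in red. On the left all 15 points lie below 0 and the 2 rRNAs are the closest to 0 together with mt-Tt, and on the right mt-Nd6 at -0.69 lies apart from the other mRNAs.

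Markers of other cell types moved with this comparison. Of 12 fibroblast markers 10 rose (83.3%), with a summed level of 924 to 1400 CPM in WT sham and 2427 to 5605 CPM in WT IR. Of 10 macrophage markers 8 rose (80%), from 159 to 177 CPM to 233 to 441 CPM. Of 22 cardiomyocyte markers 5 fell (22.7%), from a sum of 71963 to 78882 CPM to 55438 to 71284 CPM. Over all genes tested 20.8% passed in either direction and 9.74% as lower. No marker of these 3 lists was at 0 in any library. In bulk tissue, fewer cardiomyocytes and less mitochondrial RNA per cardiomyocyte cannot be told apart. When the summed cardiomyocyte markers set the library sizes, the 7 mRNAs were still below 0 but closer to it, between -0.35 and -0.04, the rRNAs were at 0.17 and 0.19, and none of the 15 genes passed. That scaling moved the median of all genes to 0.30.

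The number of calls depended on single libraries. None of the 15 genes passed without WT sham replicate 1 or without WT sham replicate 2, 1 passed without WT IR replicate 2, and 11 passed without WT IR replicate 1. Calls over all genes moved in the same direction, from 2859 to 1277, 421, 919 and 4980 in these 4 fits. The log2 fold changes of the 4 called genes stayed below 0 in all 6 fits that left out a library, between -0.76 and -0.49 for mt-Nd2 and between -1.04 and -0.76 for mt-Tp.

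The share of each mRNA among the mitochondrial mRNA counts was compared as well. With 3 against 3 libraries the permutation p cannot go under 0.1, so no share could pass in either comparison and only overlap is described. mt-Co1 took 41.8, 40.4 and 39.4% of the mitochondrial mRNA counts in WT sham and 43.7, 42.7 and 45.1% in WT IR, without overlap (difference 3.31 percentage points, two-sided exact permutation p = 0.1, adjusted over the 13 mRNAs 0.65). mt-Nd2 took 9.31, 10.1 and 10.6% in WT sham and 8.70, 8.92 and 8.78% in WT IR, also without overlap and with the same p. The other 5 counted mRNAs overlapped. mt-Nd6 took 0.155, 0.127 and 0.108% in WT sham and 0.117, 0.130 and 0.127% in WT IR, so the groups overlapped in its share.

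**Figure D5:**
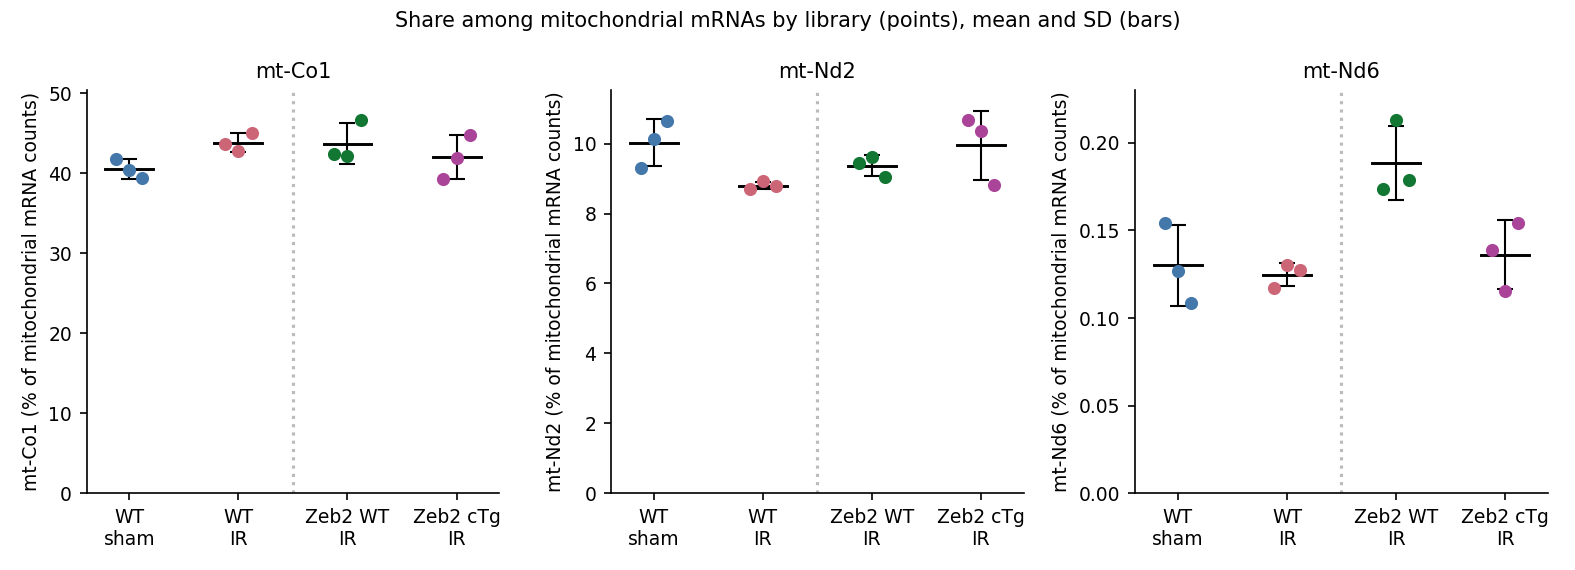
Share of mt-Co1, mt-Nd2 and mt-Nd6 among the counts of the 13 mitochondrial mRNAs (percent) for each library (points), with group mean and SD (bars) and a dotted line between the 2 tables. mt-Co1 is higher and mt-Nd2 lower in all WT IR than in all WT sham libraries, and mt-Nd6 is lower in all libraries labelled Zeb2 cTg IR than in all Zeb2 WT IR libraries.

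The nuclear genes that copy, transcribe and process the mitochondrial genome, or drive such genes, were followed as a list of 48, of which 47 were in the tables and 46 could be tested. After IR 14 were lower (30.4%, against 9.74% of all genes tested) and none higher, with a median log2 fold change of -0.17 against 0.01 over all genes. Polrmt, the mitochondrial RNA polymerase, was at 12.2, 10.6 and 10.2 CPM in WT sham and at 8.19, 5.95 and 6.45 CPM in WT IR, and fell by 0.68 (SE 0.13, edgeR, adjusted p = 0.0100). Its partners at the promoter did not pass, with Tfam at -0.14 (SE 0.08) and Tfb2m at -0.09 (SE 0.12). Mrpl12, a ribosomal protein also known to bind the polymerase, fell by 0.82, and Esrra, a nuclear receptor that drives genes of mitochondrial energy metabolism, fell by 0.82 as well. Ppargc1a, the coactivator of that programme, was at -0.22 (SE 0.13) without passing.

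Among genes that act on mitochondrial RNA, Fastk, whose mitochondrial form is known to be needed for the mt-Nd6 mRNA, was at 56.8, 61.7 and 58.8 CPM in WT sham and 43.7, 35.6 and 33.5 CPM in WT IR. It fell by 0.65 (SE 0.10, edgeR, adjusted p = 0.00517). Whether the levels of Fastk and mt-Nd6 are linked was not tested, and in the second comparison they had opposite signs. The Fastk relatives Tbrg4 and Fastkd1 fell by 0.61 and 0.43, and Supv3l1, a helicase of mitochondrial RNA decay, fell by 0.44. Mrm1 and Mrm3, which methylate the 16S rRNA, fell by 0.78 and 0.65, and Ptcd1, a pentatricopeptide protein of mitochondrial RNA, by 0.47. Lrpprc, which keeps mitochondrial mRNAs stable, fell by 0.29 (SE 0.09, edgeR, adjusted p = 0.0463), while its partner Slirp was at -0.01 (SE 0.11). Twnk, the replicative helicase, fell by 0.51.

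The calls of this list also depended on the scaling, since 3 of the 14 genes (Mrpl12, Fastk and Esrra) passed when cardiomyocyte markers set the library sizes. Without WT sham replicate 2 the list held 4 calls, and without WT sham replicate 1 or WT IR replicate 2 it held 8 each, while calls over all genes went from 2859 to 421, 1277 and 919. Of 33 nuclear genes for subunits of the same respiratory complexes and of complex II, 14 fell (42.4%, against 9.74% of all genes tested) and none rose. All 33 had a log2 fold change below 0, as did 49.2% of all genes tested, from -1.06 (Cox5b) to -0.11 (Cox7b), with a median of -0.35. The cardiomyocyte markers shifted the same way, with 21 of 22 below 0 and a median of -0.23. How the calls of the 33 genes change with the scaling or without single libraries is not given here.

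The second comparison set the libraries labelled Zeb2 cTg IR against Zeb2 WT IR, with both groups 14 days post-IR. No mitochondrial gene passed the test. mt-Nd6 came closest, with lower values in all 3 libraries labelled Zeb2 cTg IR, and the summed share of the mRNAs was slightly lower in them.

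The 37 genes took 67.4, 73.5 and 66.0% of all counts in Zeb2 WT IR and 67.1, 70.6 and 60.6% in those labelled Zeb2 cTg IR. The groups overlapped (69.0 ± 3.96 against 66.1 ± 5.10%, SD, n = 3, two-sided exact permutation p = 0.5), and replicate 3 of the second group was the lowest of all 12 libraries. The mRNAs took 7.26, 7.16 and 7.04% in Zeb2 WT IR and 6.73, 7.02 and 5.95% in those labelled Zeb2 cTg IR. These shares did not overlap, although the closest values differed little (7.15 ± 0.11 against 6.57 ± 0.55%, SD, n = 3, two-sided exact permutation p = 0.1). Without replicate 3 of the second group the difference of the means was -0.28 instead of -0.59 percentage points, and with rRNA and tRNA counts left out of the total the groups overlapped. The ratio of rRNA to mRNA counts was 8.28, 9.26 and 8.37 in Zeb2 WT IR and 8.97, 9.05 and 9.17 in those labelled Zeb2 cTg IR, with overlap.

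Of 16 mitochondrial genes tested, 0 passed in edgeR's quasi-likelihood test, where 3.64% of the 13018 genes tested did. At an unadjusted p under 0.05, 1 gene remained, mt-Nd6, and it was also the single one of the 16 whose groups did not overlap in CPM, against 26.2% of all genes tested. DESeq2 called 1 of the 16 and limma-voom 0. The 7 mRNAs had log2 fold changes from -0.69 to -0.07, and with a correction for GC content 5 of the 7 were above 0, so that their direction as a group was not stable.

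mt-Nd6 was at 120, 186 and 115 CPM in Zeb2 WT IR and at 94.7, 90.8 and 76.0 CPM in those labelled Zeb2 cTg IR. Zeb2 WT IR replicate 2 was by far the highest of the 6. The log2 fold change was -0.69 (SE 0.19, edgeR quasi-likelihood test, adjusted p = 0.0763). Over 18 alternative settings the adjusted p was 0.00675 to 0.250 and 6 of them passed the threshold. The share of mt-Nd6 among the mitochondrial mRNAs was 0.174, 0.213 and 0.179% in Zeb2 WT IR and 0.139, 0.115 and 0.154% in those labelled Zeb2 cTg IR, without overlap (two-sided exact permutation p = 0.1, adjusted over the 13 mRNAs 0.65). With the summed mRNA counts as library size the log2 fold change was -0.47 (SE 0.25, edgeR, adjusted p = 0.363). The shares of the other 6 counted mRNAs overlapped.

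The remaining mRNAs were close between the groups for their spread. mt-Co1 was at 29386, 36769 and 30087 CPM in Zeb2 WT IR and at 26823, 33036 and 22072 CPM in those labelled Zeb2 cTg IR (log2 fold change -0.23, SE 0.20). mt-Nd1 was at 11631, 15503 and 11379 against 13012, 14005 and 8021 CPM (-0.14, SE 0.23), and mt-Cytb at 10971, 13646 and 9706 against 10945, 12408 and 8070 CPM (-0.13, SE 0.21). For these mRNAs replicate 2 was the highest of its group in both groups, and replicate 3 of the libraries labelled Zeb2 cTg IR was the lowest of all 6.

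mt-Nd2 was at 6549, 8396 and 5833 against 7277, 8171 and 4350 CPM (log2 fold change -0.07), mt-Nd4 at 3911, 4739 and 2939 against 3675, 3988 and 2874 CPM (-0.14), and mt-Nd5 at 6733, 8062 and 4452 against 6386, 7099 and 3802 CPM (-0.16). mt-Rnr1 was at 54188, 79469 and 55889 against 51841, 67054 and 51583 CPM (-0.15), and mt-Rnr2 at 519622, 728916 and 484210 against 560048, 646328 and 400268 CPM (-0.11). In none of these 5 genes were the groups apart.

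The tRNA genes varied more within the groups than between them. mt-Ti was at 105, 175 and 73.0 CPM in Zeb2 WT IR and at 176, 223 and 45.1 CPM in those labelled Zeb2 cTg IR (log2 fold change 0.33, SE 0.50). Per 1000 counts of mRNA the tRNA genes had 2.12, 2.84 and 1.73 counts in Zeb2 WT IR and 3.98, 3.71 and 1.54 counts in those labelled Zeb2 cTg IR. Replicates 1 and 2 of the second group were thus the highest of the 6 libraries and replicate 3 the lowest. mt-Tw at 20.3, 27.6 and 18.8 against 39.7, 34.1 and 14.0 CPM and mt-Tm at 12.8, 22.8 and 11.2 against 31.8, 23.8 and 9.21 CPM had the same order.

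Of the list of 48 genes for expression of the mitochondrial genome, 46 were tested and 1 rose in those labelled Zeb2 cTg IR, which is 2.17% where 3.64% of all genes passed in either direction. Twnk was at 7.23, 7.81 and 6.96 CPM in Zeb2 WT IR and at 11.4, 9.89 and 11.8 CPM in those labelled Zeb2 cTg IR (log2 fold change 0.59, SE 0.14, edgeR, adjusted p = 0.0491). Polrmt was at 3.92, 2.51 and 3.73 against 8.30, 3.44 and 7.08 CPM, a log2 fold change of 0.88 (SE 0.31, edgeR, adjusted p = 0.133) with overlap. Fastk was at 25.8, 16.1 and 18.3 against 44.7, 21.6 and 40.6 CPM, also with overlap. Its log2 fold change was 0.83 (SE 0.27, edgeR, adjusted p = 0.110), while that of mt-Nd6 was -0.69. Lrpprc, Slirp, Tfam, Tfb2m and Ppargc1a had log2 fold changes of -0.01, -0.07, -0.18, -0.09 and 0.34 and did not pass. The median of the list was 0.08, against 0.01 over all genes. Of the 33 nuclear respiratory subunit genes 0 passed, with a median of 0.27, and the 22 cardiomyocyte markers had a median of 0.20. The list held 0 calls without any of 5 of the 6 libraries, and 10 without replicate 2 of the group labelled Zeb2 cTg IR, while calls over all genes went from 474 to between 98 and 325 in those 5 fits and to 2419 in the last.

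Markers moved with this comparison too. Of 12 fibroblast markers 3 fell (25%), with a summed level of 1159 to 2447 CPM in Zeb2 WT IR and 839 to 1187 CPM in those labelled Zeb2 cTg IR. Of 22 cardiomyocyte markers 2 rose (9.09%), from 69896 to 75411 CPM to 78241 to 83423 CPM. Over all genes tested 3.64% passed in either direction. With library sizes from the cardiomyocyte markers, which moved the median of all genes to -0.15, mt-Nd6 was lower by -0.84 on the log2 scale and passed (edgeR, adjusted p = 0.026), and the other mRNAs were between -0.39 and -0.23 without passing.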

How the data were processed

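RNA-seq counts per gene, deposited by the authors as whole numbers without normalization, were used as given. Per the labels, reads were aligned to mm10 with STAR 2.4.2a and counted with HTSeq 0.6.1. The methods name GENCODE M4 and single-end 75-base strand-specific reads. Modes for multiply matching reads, overlapping genes and strand are not given in the sources used here. Each table was fitted alone with edgeR 4.0.16 (TMM, filterByExpr with a minimum count of 10, quasi-likelihood test, Benjamini-Hochberg over all genes tested, threshold 0.05) on R 4.3.3, without a replicate block. The fit was tested on simulated data. CPM values use TMM library sizes. Shares were compared with two-sided exact permutation tests in SciPy 1.17.1. No GENCODE M4 annotation was used here, so gene positions and sequences came from GENCODE M21 (GRCm38), and copies were aligned with Biopython 1.88. The members and gene lists were chosen with earlier results of these data known. Any mitochondrial gene could be named. Of the tRNA genes, values are given for those called or among the 5 with most counts, and, of the 48-gene list, for 6 fixed genes and at most 10 others called, by p. Fastk, called in the first comparison, is also given in the second. Alternatives were other size factors, filters, GC correction, DESeq2 1.42.0, limma-voom (limma 3.58.1), all 12 libraries in 1 fit, and each library left out. No 2 libraries of a group agreed within sampling noise (chi-square per degree of freedom of 7.42 or more). The design text gives 3 animals per group.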

Additional observations from a re-analysis of the deposited data

How the results depend on the processing

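In WT IR against WT sham, 4 mitochondrial genes passed. The count was 0 with cardiomyocyte markers as library size, 2 (both rRNAs, higher) with mitochondrial mRNAs as library size, 11 of 29 without a filter, 7 with GC correction, 8 with DESeq2 and 1 with all 12 libraries in 1 fit. Leaving out single libraries gave 0 to 11. For the 48-gene list, 14 became 3 with cardiomyocyte markers and 7 with all 12 libraries, and 4 to 21 without single libraries. In Zeb2 cTg IR against Zeb2 WT IR, 0 mitochondrial genes became 1 (mt-Nd6) with cardiomyocyte markers, without a filter, with the replicate block, with DESeq2 and with all 12 libraries, and 0 to 1 without single libraries. The list's 1 call became 0 with RLE, upper quartile, cardiomyocyte markers, a minimum of 10 counts in every library or limma-voom, 6 without a filter, 7 with the replicate block, 2 with the replicate block and GC correction, 5 with DESeq2, 7 with all 12 libraries, and 0 to 10 without single libraries. The mRNAs whose shares did not overlap numbered 2 in the first comparison (2 to 4 without single libraries) and 1 in the second (1 to 4). Other settings kept the number of calls within 1.5 times. Over all genes, 1519 higher and 1340 lower calls of the first comparison became 2985 and 226 with cardiomyocyte markers, 4311 and 73 with mitochondrial mRNAs, and 1173 and 1567 with GC correction. The 278 higher and 196 lower of the second became 175 and 563, 292 and 83, and 479 and 358. Its 474 calls became 1813 with the replicate block, 1096 with DESeq2 and 1932 with all 12 libraries. The replicate block gave 3 mitochondrial genes in the first comparison. Same-numbered libraries correlated between -0.03 and 0.01 in the first comparison and between -0.06 and 0.20 in the second, so the numbers were not taken as pairs. The cause of these shifts was not tested. Signs of fold changes differed in 8 of 269 alternative fits of single genes in the first comparison and in 48 of 287 in the second, in none of the called genes. Not counted there were fits with mitochondrial mRNAs as library size, where mt-Rnr1, mt-Rnr2 and other genes changed sign in both comparisons. Between 30 and 86 counts per library limit mt-Tp, and 6 mRNAs in both comparisons, 16 tRNA genes in the first and 15 in the second could not be tested for want of counts.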

Other observations

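Nuclear copies of mitochondrial sequence outside chromosome 1 were counted at low levels. Gm13340 on chromosome 2, a copy of all of mt-Co1 at 97.6% identity, had 138 to 301 counts per library, and Gm13341 beside it, a copy of mt-Co2 at 95.9% identity, had 36 to 72. The copies of parts of mt-Nd2 (Gm13339, 96.7% identity) and mt-Nd5 (Gm4076, 95.2%, and Gm11407, 92.4%) had 0 to 24. Pseudogenes as a class took 0.895 to 0.920% of the nuclear counts in the 6 libraries of the first table and 0.103 to 0.131% in the 6 of the second. The 2 tables thus differed in this share without overlap, and the cause was not tested. Values pooled over both tables, such as medians over all 12 libraries and the fit of all 12 libraries, are limited by this difference.

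Markers of other cell types in the tissue were followed as well. None of 10 endothelial markers passed in WT IR against WT sham or in Zeb2 cTg IR against Zeb2 WT IR, with medians of -0.09 and -0.24 on the log2 scale (edgeR). At 5 markers each, smooth muscle markers had 1 higher and 1 lower after IR, and erythroid markers 2 lower. Of all genes tested in that comparison, 20.8% passed in either direction and 9.74% as lower. In the second comparison 1 of 4 smooth muscle markers tested was higher, and 0 of 5 erythroid and 0 of 10 macrophage markers passed, against 3.64% of all genes tested.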
